A study of Mus musculus with 6 samples.

Results

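The microRNA machinery comprises the proteins that make microRNAs and the proteins that use them to silence mRNAs. The core genes Drosha, Xpo5, Dicer1, the Argonautes Ago1, Ago2, Ago3 and Ago4, and the TNRC6 genes Tnrc6a, Tnrc6b and Tnrc6c, were followed on mouse gene arrays. These 10 genes, of 19938 measured, were chosen by symbol. RAW264.7, an established mouse macrophage-like cell line, was transfected with miR-342-3p mimics (3 samples) or with negative control mimics (3 samples). Cells were plated at 500000 per well, and total RNA was isolated 18 h after transfection and hybridized with 1 sample on each array. No group without transfection was measured, so that both groups had received a synthetic RNA. The 3 samples of a group were described as independent experiments. Each value is a log2 value per probe set, processed by the robust multi-array average (RMA) procedure, and 1 probe set represented each gene. Such values are relative to the total RNA on the array, so that fewer cells with a transcript and less transcript per cell cannot be told apart. Values of different probe sets are not on a common scale.

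In the nucleus, Drosha cuts the hairpin of a microRNA out of its primary transcript. Exportin 5, encoded by Xpo5, carries the hairpin to the cytoplasm, where Dicer removes the loop, and one strand of the remaining duplex is loaded into an Argonaute protein. The loaded Argonaute pairs with target mRNAs mainly through the seed, the bases near the 5′ end of the microRNA. It binds a TNRC6 protein (GW182), which recruits the poly(A)-binding protein and the deadenylases that shorten and destabilize the target. A mimic is a synthetic RNA made to be loaded into Argonaute directly. It therefore depends on Argonaute and TNRC6 proteins and not on cleavage by Drosha.

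The sequences of the transfected microRNA and of its natural precursor are shown because each step of the pathway acts on a part of them. They are RefSeq sequences of the assembly GRCm38.p6, from chr12:108658620-108658718 on the plus strand, within the bounds of the gene Evl. In the mature strands the seed (bases 2 to 8) is in capitals.
mmu-miR-342-3p: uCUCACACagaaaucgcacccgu
mmu-miR-342-5p: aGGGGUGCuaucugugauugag
In the hairpin both mature strands are in capitals. Drosha acts at the lower-case flanks and Dicer at the lower-case loop between the strands.
Mir342 hairpin: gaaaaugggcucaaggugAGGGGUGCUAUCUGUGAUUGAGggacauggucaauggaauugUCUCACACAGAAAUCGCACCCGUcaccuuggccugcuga
Among the 1738 mature mouse microRNAs in the RefSeq table, 1 had the seed of miR-342-3p, which is miR-342-3p itself. A target that pairs with this seed carries GUGUGAG.

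None of the 10 genes of the microRNA machinery was called in miR-342-3p-transfected cells at a false discovery rate (FDR) under 0.1 by limma, a linear model with a moderated spread. The background was 2304 of 19938 genes called (11.6%), 825 higher (4.14%) and 1479 lower (7.42%). Lower genes made up 64.2% of these calls, 77.2% with arrays centered on their medians and 43.8% with quantile normalization repeated. At an unadjusted p under 0.05 there were 2 of the 10 genes, Ago4 and Drosha, against 25.5% of all genes. Of the log2 fold changes (miR-342-3p minus control), 5 were above and 5 below 0. Their median was 0.0050, against a median of 0.069 over all genes, and the median of their absolute size was 0.063, against 0.139 over all genes. An absolute log2 fold change under 0.1 was measured for 7 of the 10 genes and for 36% of all genes. The 95% confidence intervals of all 10 genes lay between -0.5 and 0.5 on the log2 scale, which held for 80.7% of all genes. The smallest measured log2 change that this fit would have called ranged from 0.226 for Drosha to 0.383 for Ago3. A true change above this size can still be missed with 3 arrays in each group. In data simulated with equal spread in both groups, 200 of 19938 genes were changed. There 6.6% of log2 changes of 0.25 and 81.6% of those of 0.5 were called, and 12.2% of the calls were false. With fewer changed genes than the 2304 called here, an FDR under 0.1 asks for a smaller p than in the main fit. These shares therefore do not give how often the main fit would call such changes. A p that misses the threshold does not show that a gene was unaffected.

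**Figure D1:**
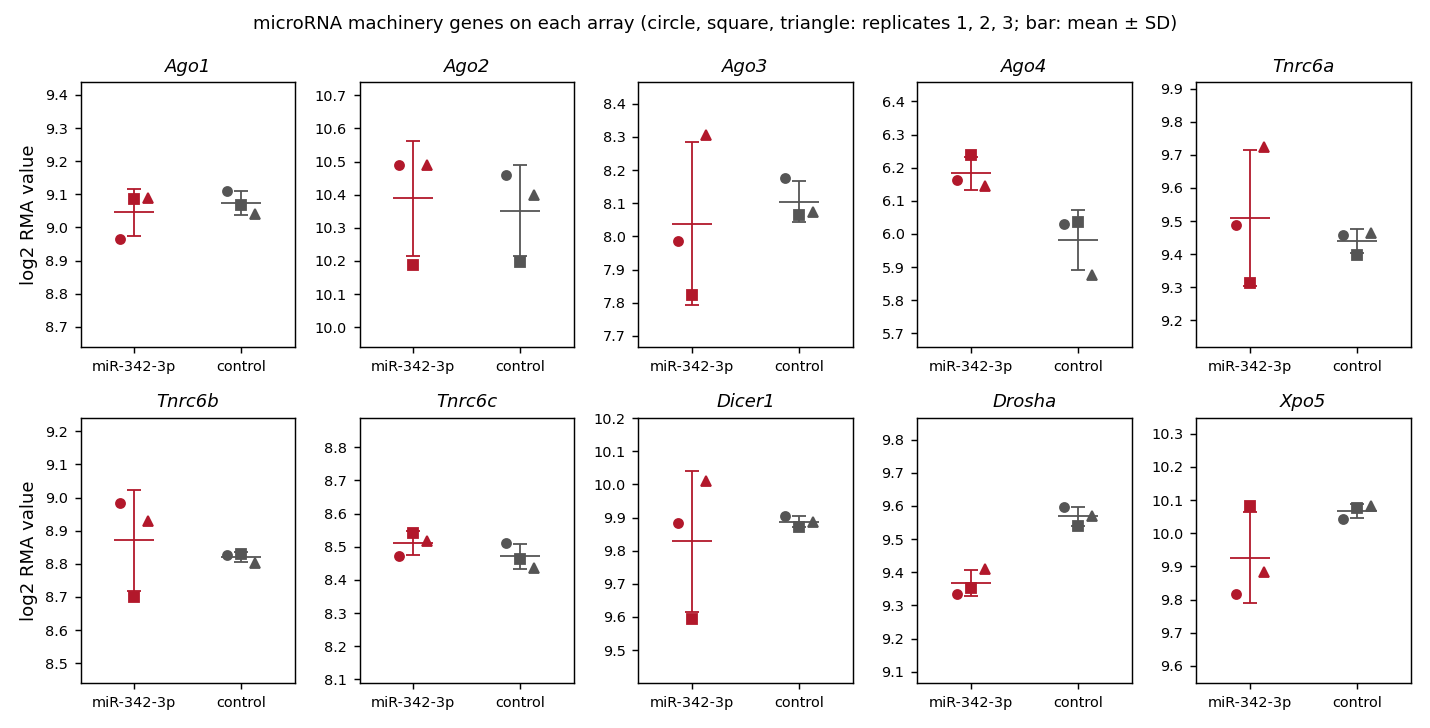
Log2 RMA values of the 10 genes on each array, with miR-342-3p samples in red and control samples in grey; circles, squares and triangles are replicates 1, 2 and 3, and bars give the mean ± SD of the 3 samples. All panels span the same range of log2 units. The groups do not overlap for Ago4 and Drosha, and miR-342-3p replicate 2 is the lowest array of its group for Ago2, Ago3, Tnrc6a, Tnrc6b and Dicer1.

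The medians of the 6 arrays over all probe sets ranged from 6.80 to 6.95, a difference of 0.151. This exceeded the median absolute log2 fold change of all genes (0.139) and of the 10 genes (0.063). The SD over the miR-342-3p arrays exceeded that over the control arrays in 84.9% of all genes and in 8 of the 10 machinery genes, with a median ratio of 2.48 over all genes and of 2.97 over the 10. Of 8 macrophage markers, Spi1 was higher (0.35), Itgam was lower (-0.35) and the other 6 were not called (25% called, against 11.6% of all genes). Of 9 markers of fibroblasts, lymphocytes and epithelial cells, none was called, with log2 fold changes from -0.0079 to 0.196. Their mean level per array was 6.54 to 6.86 in miR-342-3p-transfected cells and 6.45 to 6.60 in control cells, and the part of other cells in the results was not tested.

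Drosha, the nuclear RNase III that starts microRNA processing, had log2 values of 9.34, 9.35 and 9.41 in miR-342-3p-transfected cells, against 9.60, 9.54 and 9.57 in control cells. All miR-342-3p arrays were thus below all control arrays, and the values were close together in both groups. The log2 fold change was -0.20 (standard error 0.071, 95% confidence interval -0.36 to -0.041, FDR = 0.127), or a fold change of 0.869. Drosha was the nearest of the 10 genes to the threshold, and 30.3% of all genes had a larger absolute change. It was called lower when genes under the median level were left out (FDR = 0.06) and without miR-342-3p replicate 3 (FDR = 0.092). With arrays centered on the medians of the genes tested it was called lower too (log2 fold change -0.27, FDR = 0.074). Of the genes tested, 30.5%, 22.7% and 12% were called in these settings, in that order. The main fit, to all genes and arrays as deposited, called 11.6%.

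Exportin 5, the nuclear export receptor of hairpin precursors, had values for Xpo5 of 9.82, 10.08 and 9.88 in miR-342-3p-transfected cells, against 10.04, 10.08 and 10.08 in control cells. Replicates 1 and 3 were below the control arrays, whereas replicate 2 lay within their range. The log2 fold change was -0.14 (standard error 0.087, interval -0.34 to 0.058, FDR = 0.321). Without replicate 2 it was -0.22, and Xpo5 was then called lower (FDR = 0.098). In that setting 15.1% of all genes were called, against 11.6% in the main fit.

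Dicer1 encodes the cytoplasmic RNase III that removes the loop. Its values were 9.88, 9.59 and 10.01 in miR-342-3p-transfected cells, against 9.90, 9.87 and 9.89 in control cells. The control arrays were close together, and the miR-342-3p arrays lay on both sides of them. The log2 fold change was -0.059 (standard error 0.108, interval -0.30 to 0.19, FDR = 0.727). It was 0.058 without replicate 2 and 0.0055 with quantile normalization repeated, so that no direction can be given for Dicer1.

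The 3 genes of the processing steps thus had negative log2 fold changes, with that of Dicer1 turning positive under the settings named. No test was made of the 3 genes together.

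The Argonautes bind the microRNA. Ago1, Ago3 and Ago4 are neighbours among the protein-coding genes of chromosome 4 in GRCm38.p6, while Ago2, the Argonaute best known for cutting fully paired targets, is on chromosome 15. Ago2 had values of 10.49, 10.19 and 10.49 in miR-342-3p-transfected cells, against 10.46, 10.20 and 10.40 in control cells. The groups overlapped, and the array of replicate 2 was the lowest in both. The log2 fold change was 0.037 (standard error 0.110, interval -0.21 to 0.29, FDR = 0.834). Ago2 was the only one of the 10 genes with another probe set. On it the values were 10.44, 10.43 and 10.47 in miR-342-3p-transfected cells, against 10.35, 10.41 and 10.40 in control cells. There the array of replicate 2 did not stand apart, and the log2 fold change was 0.055 (standard error 0.068, interval -0.10 to 0.21, FDR = 0.606 over all probe sets). On the first probe set the sign turned without miR-342-3p replicate 1 or 3 or control replicate 2, so that no direction can be given for Ago2 either.

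Ago4 had values of 6.16, 6.24 and 6.15 in miR-342-3p-transfected cells, against 6.03, 6.04 and 5.88 in control cells. Its mean level (6.08) was the lowest among the genes followed and near the lower quartile of probe set levels (6.004). The Piwi genes of the germline had mean levels of 5.99 to 6.95 and log2 fold changes from 0.073 to 0.195, none called. Whether Ago4 was read above background was not tested. For Ago4 all miR-342-3p arrays were above all control arrays. The log2 fold change was 0.20 (standard error 0.079, interval 0.022 to 0.38, FDR = 0.159), a fold change of 1.15, and it stayed positive but uncalled by limma under every alternative run (0.13 to 0.23), among which the filter on low values did not retain Ago4.

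Ago1 had values of 8.96, 9.09 and 9.09 in miR-342-3p-transfected cells, against 9.11, 9.07 and 9.04 in control cells. Replicates 2 and 3 lay within the control range and replicate 1 below it, and its log2 fold change was -0.027 (standard error 0.075, interval -0.20 to 0.14, FDR = 0.820). Ago3 had values of 7.99, 7.82 and 8.31 in miR-342-3p-transfected cells, against 8.18, 8.06 and 8.07 in control cells. Replicates 1 and 2 were below and replicate 3 above all control arrays, and the log2 fold change was -0.066 (standard error 0.120, interval -0.34 to 0.21, FDR = 0.727). The sign of both turned with array weights and when 1 miR-342-3p array was left out (replicate 1 for Ago1, replicate 2 for Ago3), which leaves neither with a direction.

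The TNRC6 proteins link Argonaute to the deadenylation machinery. Tnrc6a had values of 9.49, 9.31 and 9.72 in miR-342-3p-transfected cells, against 9.46, 9.40 and 9.47 in control cells. The miR-342-3p arrays lay on both sides of the control arrays, and the log2 fold change was 0.068 (standard error 0.106, interval -0.17 to 0.31, FDR = 0.679). Tnrc6b had values of 8.98, 8.70 and 8.93 in miR-342-3p-transfected cells, against 8.83, 8.83 and 8.80 in control cells. Replicates 1 and 3 were above and replicate 2 below the control arrays, and the log2 fold change was 0.050 (standard error 0.091, interval -0.16 to 0.26, FDR = 0.723). Tnrc6c had values of 8.47, 8.54 and 8.52 in miR-342-3p-transfected cells, against 8.51, 8.46 and 8.44 in control cells. Tnrc6c was little spread in either group, and its log2 fold change was 0.040 (standard error 0.071, interval -0.12 to 0.20, FDR = 0.723). The signs of all TNRC6 changes turned negative when arrays were centered on the medians of the genes tested (-0.0021, -0.020 and -0.030), while with quantile normalization repeated they were 0.132, 0.125 and 0.109 for Tnrc6a, Tnrc6b and Tnrc6c, none of them called.

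**Figure D2:**
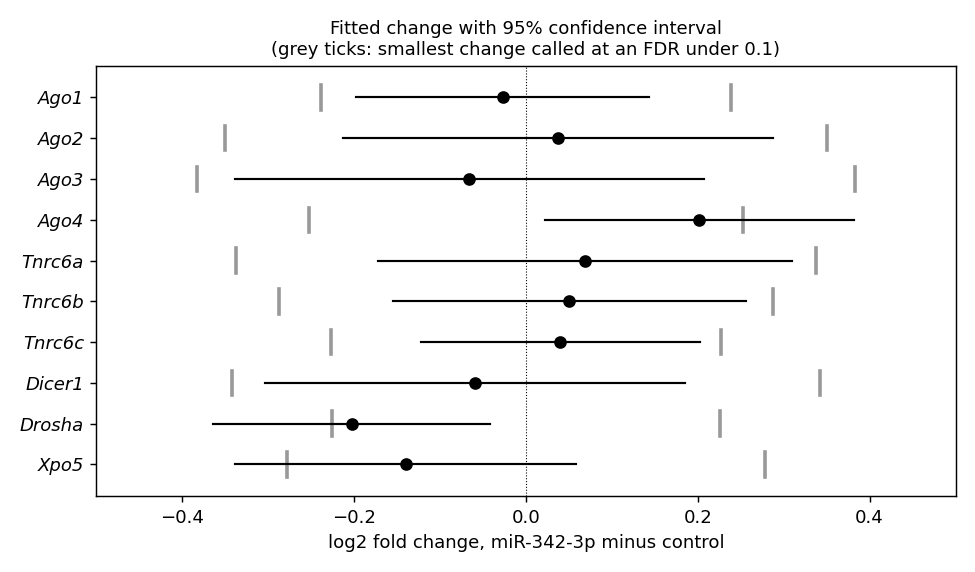
Fitted log2 fold change (miR-342-3p minus control) of each gene as a point, with its 95% confidence interval as a line; grey ticks mark the smallest change in either direction that the fit would have called at an FDR under 0.1. No point lies beyond its ticks, and the intervals of Ago4 (0.022 to 0.38) and Drosha (-0.36 to -0.041) leave out 0.

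In several of these genes the miR-342-3p arrays lay on opposite sides of the control arrays. On miR-342-3p replicate 2 the changes from the control mean were -0.16 for Ago2, -0.28 for Ago3, -0.13 for Tnrc6a, -0.12 for Tnrc6b and -0.29 for Dicer1. On replicate 3 they were 0.14, 0.20, 0.28, 0.11 and 0.12 for the same genes. In these 5 of the 10 genes replicate 2 was below and replicate 3 above every control array, an order found in 5.91% of all genes. For Ago2 the distance of replicate 2 to the nearest control array was small, and the order was absent on its other probe set. The median change over the 10 genes was -0.0013, -0.12 and 0.12 on replicates 1, 2 and 3, against 0.113, 0.036 and 0.025 over all genes. This order was noticed in the data, was not tested, and includes the 5 genes with the widest spread over the miR-342-3p arrays. Drosha and Ago4, by contrast, moved one way on every miR-342-3p array, by -0.23, -0.22 and -0.16 for Drosha and by 0.18, 0.26 and 0.16 for Ago4. The groups did not overlap in these 2 of the 10 genes (1 lower and 1 higher), against 36.9% of all genes (15.5% lower and 21.4% higher).

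**Figure D3:**
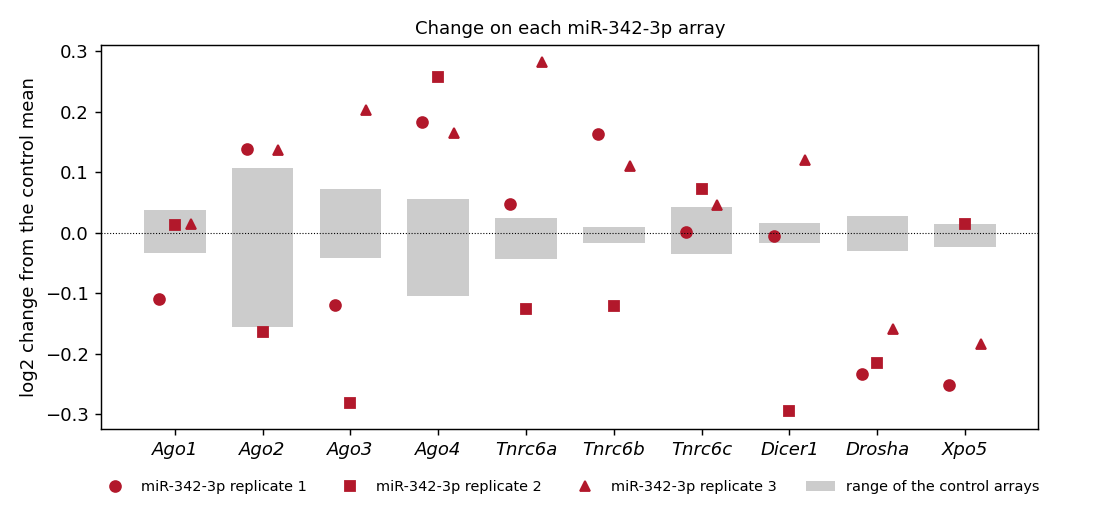
Log2 change of each miR-342-3p array from the control mean, with circles, squares and triangles for replicates 1, 2 and 3 and grey bars for the range of the control arrays around their mean. Replicate 2 lies below and replicate 3 above the grey bar in Ago2, Ago3, Tnrc6a, Tnrc6b and Dicer1; all replicates lie above it in Ago4 and below it in Drosha.

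Genes that act with this core were described by role. Over all genes 11.6% were called (4.14% higher and 7.42% lower), and the median log2 fold change was 0.069. Of 12 genes of the microprocessor, the cap-binding and splicing factors that assist it and the partners of exportin 5 and Dicer, 1 was called, which was lower, and 11 were not (8.33% called, median log2 fold change -0.072). The lower gene was Ncbp2, a subunit of the nuclear cap-binding complex. Its values were 8.04, 8.28 and 8.52 in miR-342-3p-transfected cells, against 8.77, 8.73 and 8.86 in control cells (log2 fold change -0.50, standard error 0.118, FDR = 0.049). The groups did not overlap, and replicate 3 was nearest to the controls. Dgcr8, the RNA-binding partner of Drosha, was at 0.053 (FDR = 0.704), and Tarbp2 and Prkra, the double-stranded RNA-binding partners of Dicer, at 0.043 (FDR = 0.877) and 0.050 (FDR = 0.786). The log2 fold change furthest from 0 in this list was that of the splicing factor gene Srsf3, which did not pass the test. Its values were 7.05, 8.01 and 8.28 in miR-342-3p-transfected cells, against 8.60, 8.46 and 8.53 in control cells (-0.75, FDR = 0.126). The RNA helicase gene Ddx5 was just outside the threshold (-0.26, FDR = 0.103). All miR-342-3p arrays were below all control arrays in 6 of the 12 genes, Ncbp2, Srsf3 and Ddx5 among them, and above them in 1 (Adar), against 15.5% and 21.4% of all genes.

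HSP90 and HSC70 chaperones hold Argonaute open while the duplex is loaded. Of 11 measured chaperone genes, 2 were called, both lower, and 9 were not (18.2% called, median -0.16, against 11.6% and 0.069 over all genes). Both encode HSP90 co-chaperones of the FKBP family. Fkbp5 had values of 9.09, 9.39 and 9.40 in miR-342-3p-transfected cells, against 9.75, 9.78 and 9.66 in control cells (log2 fold change -0.44, FDR = 0.044). Fkbp4 had values of 9.95, 10.31 and 10.01 in miR-342-3p-transfected cells, against 10.39, 10.41 and 10.45 in control cells (log2 fold change -0.33, standard error 0.103, FDR = 0.0995). Fkbp4 was just inside the threshold and was lost without miR-342-3p replicate 1 (FDR = 0.184) or 3 (FDR = 0.136), with arrays centered on their medians (FDR = 0.140), with the replicate block (FDR = 0.117) and when every probe set was tested (FDR = 0.105). For the HSP90 gene Hsp90ab1 no value was used. The other HSP90 gene of the list, Hsp90aa1, had the log2 fold change furthest from 0 and was not called (-0.54, FDR = 0.118). In 6 of the 11 genes all miR-342-3p arrays lay below all control arrays, and in none above them, against 15.5% and 21.4% of all genes.

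Downstream of TNRC6, 24 genes of deadenylation, decapping and decay were measured. Of these, 2 were lower, 1 was higher and 21 were not called (12.5% called, median -0.12, against 11.6% and 0.069 over all genes). Cnot6, a deadenylase of the CCR4-NOT complex, had values of 10.08, 10.05 and 10.44 in miR-342-3p-transfected cells, against 10.66, 10.73 and 10.64 in control cells (log2 fold change -0.49, standard error 0.110, FDR = 0.043). Lsm14a, a P-body protein, had a log2 fold change of -0.29 (FDR = 0.069). The higher gene was Patl1, a scaffold of the decapping machinery, at 9.61, 9.74 and 9.64 in miR-342-3p-transfected cells, against 9.42, 9.34 and 9.34 in control cells (log2 fold change 0.30, standard error 0.076, FDR = 0.061). The groups did not overlap in any of these genes. In the list of 24, all miR-342-3p arrays were below all control arrays in 8 genes and above them in 4, against 15.5% and 21.4% of all genes. Lsm14a was lost with array weights (FDR = 0.1003), the replicate block (FDR = 0.140) and without miR-342-3p replicate 1 (FDR = 0.107), and Patl1 with the block (FDR = 0.135), with arrays centered on their medians (FDR = 0.142) and with arrays centered on the medians of the genes tested (FDR = 0.162).

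Of 14 genes that tail, trim or degrade microRNAs and their precursors, 2 were lower, 1 was higher and 11 were not called. Thus 21.4% were called, with a median of -0.18, against 11.6% and 0.069 over all genes. Tsn, which encodes translin, a subunit of an RNase that removes passenger strands and precursor fragments, had values of 9.46, 10.03 and 9.84 in miR-342-3p-transfected cells, against 10.24, 10.28 and 10.26 in control cells (log2 fold change -0.49, standard error 0.131, FDR = 0.068). The poly(A)-specific ribonuclease gene Parn had a log2 fold change of -0.41 (FDR = 0.074). Zswim8 encodes the ubiquitin ligase subunit that destroys Argonaute in target-directed microRNA decay. It was higher, at 8.84, 9.26 and 8.87 in miR-342-3p-transfected cells, against 8.63, 8.54 and 8.56 in control cells (log2 fold change 0.41, standard error 0.116, FDR = 0.074). With arrays centered on their medians Zswim8 (FDR = 0.147) and Parn (FDR = 0.102) were not called, and with centering on the medians of the genes tested Zswim8 was not called (FDR = 0.154). All miR-342-3p arrays were below all control arrays in 4 of the 14 turnover genes and above them in 3, against 15.5% and 21.4% of all genes. The 3 Piwi genes, Argonaute relatives of the germline, were not called, with log2 fold changes from 0.073 to 0.195.

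In the methods' t-test after adjustment none of these genes of the wider pathway was called (0.129 for Patl1 to 0.241 for Fkbp4). At an FDR under 0.05 by limma Ncbp2, Fkbp5 and Cnot6 were called and the other 6 were not. Without any 1 control array none was called, while 1.01% to 1.17% of all genes were called then. Without miR-342-3p replicate 3 the lower genes numbered 7 of deadenylation and decay, 6 of turnover, 3 of the processing partners and 2 of the chaperones. The higher genes numbered 1 of deadenylation and decay and 2 of turnover. In that setting 22.7% of all genes were called (2104 higher and 2422 lower), against 11.6% in the main fit.

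**Figure D4:**
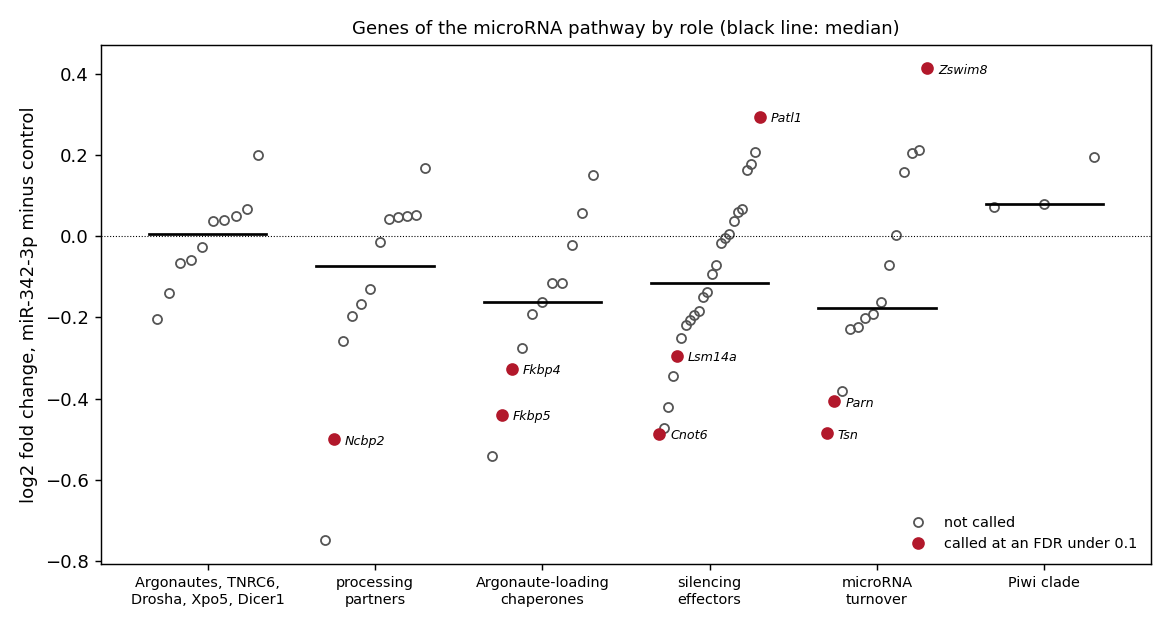
Log2 fold change (miR-342-3p minus control) of each measured gene by its role in the microRNA pathway, with filled red points for genes called at an FDR under 0.1, open points for the others and a black line at the median of each list. The 10 core genes lie between -0.20 and 0.20 with none called, and called genes of the other lists lie between -0.50 (Ncbp2) and 0.41 (Zswim8).

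Mature microRNAs were not measured. A probe set of the natural precursor gene Mir342 had values of 6.10, 5.62 and 5.72 in miR-342-3p-transfected cells, against 5.36, 5.49 and 5.45 in control cells. All miR-342-3p arrays were above all control arrays, and the log2 fold change was 0.38 (standard error 0.122, interval 0.10 to 0.66, FDR = 0.105). It was just outside the threshold, and was called higher with arrays centered on their medians (FDR = 0.090), with array weights (FDR = 0.081), with a trended, robust prior (FDR = 0.089), with quantile normalization repeated (FDR = 0.052) and without miR-342-3p replicate 2 (FDR = 0.066) or 3 (FDR = 0.087). It was not called with centering on the medians of the genes tested (FDR = 0.116), without any 1 control array (FDR = 0.243 to 0.317) or in the methods' t-test before or after adjustment (0.267 after it). Without miR-342-3p replicate 1, its highest array, the log2 fold change was 0.24 (FDR = 0.121). All control values of Mir342 were below the lower quartile of probe set levels (6.004). Whether this probe set reads the mimic or stands above background was not tested. The gene Evl, within which Mir342 lies, had values of 7.98, 7.74 and 7.67 in miR-342-3p-transfected cells, against 7.68, 7.70 and 7.67 in control cells. Replicate 1 stood above all others, and the log2 fold change was 0.12 (standard error 0.093, interval -0.096 to 0.33, FDR = 0.426).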

How the data were processed

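The deposited log2 values of 35556 probe sets on 6 Affymetrix mouse gene arrays, each labeled from 150 ng of RNA, were made by the authors with RMA, which corrects background, equalizes the arrays by quantiles and summarizes probes. Its version: not given in the sources used here. Through the platform annotation 21789 probe sets had 1 gene, and of several probe sets of a gene the one with the largest interquartile range was used, which left 19938 genes and no filter on level. Entrez IDs of 21698 probe sets matched the RefSeq table of GRCm38.p6. Groups came from the sample labels. The model was fitted to all genes in limma (lmFit, eBayes; version 3.58.1, under R 4.3.3), and p-values were adjusted after Benjamini and Hochberg; an FDR under 0.1 was called. Alternatives changed the probe set rule, filter, scaling, prior, weights, block, threshold, test and samples. The methods' t-test was two-sided with equal variances. Figures were drawn with matplotlib version 3.10.9. The fit was tested on simulated data. The number of arrays, not a depth, sets the precision. The genes, lists and rules were chosen with earlier results of these data known. All 10 genes are named, and from each list up to 4 called genes in the direction of most and 2 in the other. Evl and Mir342 are named whatever their values. Dgcr8, Tarbp2, Prkra, Srsf3, Ddx5, Adar, Hsp90aa1, the called markers and the genes of the closing section were named after their values had been seen. UTR sequences were not used here.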

Additional observations from a re-analysis of the deposited data

How the results depend on the processing

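Of the 10 genes, none was called with another probe set, with every probe set tested (21789), with arrays centered on their medians, with repeated quantile normalization, with the trend and robust prior, with array weights, at an FDR under 0.05, or after adjustment in the methods' t-test. With the replicate block none was called either. The block gave an FDR of 0.294 for Drosha (-0.20) and of 0.298 for Ago4 (0.20). Deviations of arrays of the same number correlated at -0.31, -0.16 and -0.11. With deviations from means of 3 arrays, this cannot decide whether the numbers paired the samples. Drosha was called lower (1 gene) above the median level (-0.20, FDR = 0.06), without miR-342-3p replicate 3 (-0.22) and with arrays centered on the medians of the genes tested (-0.27), an alternative chosen after seeing the data. Xpo5 was called (1 gene) without replicate 2 (-0.22). Of the genes tested, 30.5% were called above the median level, 22.7% without replicate 3, 12% with that centering and 15.1% without replicate 2. In the main fit 11.6% were called. In the unadjusted t-test Ago4 (0.20, 1 gene higher) and Drosha (-0.20, 1 gene lower) were under 0.05, against 20.2% of all genes.

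Signs turned for Ago1 with repeated quantile normalization (0.036) and array weights (0.0029), for Dicer1 with both (0.0055 and 0.0059) and for Ago3 with array weights (0.050). With arrays centered on the medians of the genes tested they turned for Ago2 (-0.033), Tnrc6a (-0.0021), Tnrc6b (-0.020) and Tnrc6c (-0.030). Leaving out 1 array gave ranges of -0.048 to 0.014 for Ago1, -0.040 to 0.138 for Ago2, -0.20 to 0.042 for Ago3, 0.15 to 0.23 for Ago4, -0.039 to 0.165 for Tnrc6a, -0.0058 to 0.136 for Tnrc6b, 0.022 to 0.061 for Tnrc6c, -0.15 to 0.058 for Dicer1, -0.22 to -0.19 for Drosha and -0.22 to -0.084 for Xpo5, with 0 or 1 of the 10 genes called. The cause was not tested.

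All genes called higher and lower numbered 88 to 2104 and 102 to 2422 when 1 array was left out. They were 408 higher with arrays centered on their medians (77.2% of calls lower, against 64.2%), 1826 higher with repeated quantile normalization (43.8% lower), 377 higher with centering on the genes tested (84.2% lower), 312 and 661 at an FDR under 0.05, 26 and 22 after adjustment in the t-test, and 2080 higher without adjustment.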

Other observations

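The array also holds probe sets of microRNA precursor genes, the transcripts on which Drosha and Dicer act. Of 296 such genes, 9 were lower and 5 higher in miR-342-3p-transfected cells at an FDR under 0.1 by limma (4.73% called, against 11.6% of all genes). Of the 296 log2 fold changes, 198 were above 0, and the median over all genes was above 0 as well. The groups did not overlap in 41 genes that were higher and 15 that were lower, calls included, against 21.4% and 15.5% of all genes. The median log2 fold change of the 296 precursor genes was 0.068, against 0.069 over all genes. It was 0.184 on replicate 1, against -0.00024 and 0.050 on replicates 2 and 3. The genes named here were chosen after their values had been seen. The median level of the precursor genes was below the lower quartile of probe set levels. Whether precursor probe sets stood above background was not tested.

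Among the lower genes were Mir15b and Mir16-2, members of the miR-15 and miR-16 family known to restrain the cell cycle. Mir15b had log2 values of 3.79, 4.92 and 4.99 in miR-342-3p-transfected cells, against 5.82, 5.46 and 5.53 in control cells (log2 fold change -1.04, FDR = 0.069), and was not called with the trend and robust prior (FDR = 0.101), at an FDR under 0.05, or in the methods' t-test before or after adjustment (0.265 after it). Without miR-342-3p replicate 1, its lowest array, the log2 fold change was -0.65 (FDR = 0.044). Mir16-2 had values of 4.23, 4.15 and 4.24 in miR-342-3p-transfected cells, against 4.92, 4.55 and 4.71 in control cells (log2 fold change -0.52, FDR = 0.028), and was not called in the adjusted t-test (0.155). The groups did not overlap for either gene. All values of both genes were below the lower quartile of probe set levels. Mir15b and Mir16-2 both lie within the bounds of the condensin gene Smc4, whose log2 fold change was -1.16 (standard error 0.40, FDR = 0.125). Without control replicate 1 or 3 neither precursor was called, and without control replicate 2 Mir15b was not called (FDR = 0.176). Of the same family, Mir15a (-0.53, FDR = 0.148) and Mir16-1 (-0.16, FDR = 0.473, with overlapping groups) were not called.

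Mir362 (-0.31) and Mir532 (-0.27) lie within Clcn5, a chloride-proton exchanger gene that was lower as well (-0.42, FDR = 0.049), and Mir687 (-0.73, with overlapping groups) lies within the retinoblastoma gene Rb1, also lower (-0.68, FDR = 0.073). The hosts of 2 other lower genes were not called: Mir128-1 (-0.54) lies within R3hdm1 (-0.30, FDR = 0.268) and Mir186 (-0.58) within Zranb2 (-0.31, FDR = 0.118). Mir142, a microRNA gene of blood cells, had values of 6.71, 7.16 and 7.62 in miR-342-3p-transfected cells, against 8.01, 7.68 and 8.01 in control cells (log2 fold change -0.74, FDR = 0.073). The remaining lower gene was Mir181a-1 (-0.30). The higher genes were Mir92b (0.47), Mir375 (0.43), Mir24-2 (0.41), Mir376b (0.28) and Mir369 (0.27), with no overlap of the groups. Whether a precursor probe set and that of its host read the same transcript was not tested, and of these precursors other settings were run for Mir15b and Mir16-2 only.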
